A study of Homo sapiens with 4 samples.

Results

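ERRα binding was examined at 9 human genes whose products copy and transcribe mitochondrial DNA, out of 20037 protein-coding genes in the RefSeq table. The 9 genes were taken by name for their role (TFAM, TFB1M, TFB2M, POLG, POLG2, POLRMT, TWNK, SSBP1 and TOP1MT), and every ERRα peak with its summit inside one of them or within 50 kb of it was taken. The data are chromatin immunoprecipitation and sequencing (ChIP-seq) of ERRα, an orphan nuclear receptor encoded by ESRRA, in the triple-negative human breast cancer line MDA-MB-231. The study has 2 ChIP libraries made with an antibody to ERRα and 2 input libraries made without antibody, all from unmodified cells grown in DMEM with 10% FCS, penicillin and streptomycin, with no treatment named. Per the series' design text the samples came from 2 cell cultures, and the labels' read numbers, printed without an exponent sign, were taken as 29000000 for ERRα and 10000000 for input libraries (81 bp, paired-end). Replicate 1 had 14072 peaks and replicate 2 had 12659 on the nuclear chromosomes. Of 10059 peaks matched between the replicates, 5070 had an irreproducible discovery rate (IDR) of 0.05 or less and are called reproducible here. All groups are 1 cell line in 1 state, so the values compare genes and replicates, not conditions, and nothing here measures RNA or protein of the 9 genes.

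Mitochondrial DNA is a small circle held in nucleoids, and every protein that copies or transcribes it is encoded in the nucleus and imported. TFAM bends and packages the circle and marks its promoters, where POLRMT, the single-subunit RNA polymerase, starts transcription with TFB2M. Copying needs the polymerase POLG with its accessory subunit POLG2, the helicase TWNK (Twinkle) and the single-strand binding protein SSBP1. TOP1MT relieves the twist that builds up in the circle, and TFB1M, a relative of TFB2M, methylates the small mitochondrial ribosomal RNA. Genes of this group are textbook targets of the nuclear respiratory factors NRF1 and NRF2 (an ETS family factor also called GABP), and ERRα with PGC-1 coactivators is known as a regulator of mitochondrial biogenesis.

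POLG was the 1 gene of the 9 with a reproducible ERRα summit within 1 kb of an end, 602 bp inside the gene from its start. In all, 29 peaks had a summit inside the 9 genes or within 50 kb, of which 7 were reproducible, 8 were matched but had an IDR above 0.05, 13 were in the list of replicate 1 alone and 1 in that of replicate 2 alone. At least 1 reproducible summit lay inside or within 50 kb of 6 genes (POLG, POLG2, POLRMT, TFB2M, TOP1MT and TWNK), whereas this holds for 33.7% of all protein-coding genes. A window of this size also takes in the neighbours: 2 of the 7 reproducible summits were inside one of the 9 genes (POLG and POLRMT, against 11.5% of all genes with such a summit), 4 were inside another protein-coding gene and 1 outside all of them. Within 1 kb of a gene end there was a reproducible summit for POLG and for none of the other 8 genes, against 4.49% of all genes. Of the 7 genes whose start was in the promoter table used here, POLG again was the 1 called within 1 kb of the start, against 4.51% of 15843 genes. With 1 gene called at an end or a start, no share over the 9 genes can be read against these backgrounds. Over all 10059 matched peaks, TFB1M joined the 6 genes within 50 kb (50.8% of all genes) and TOP1MT the 2 with a summit inside (19.4%), while POLG remained the 1 called at an end (8.85%) and at a start (9.05%). In the whole list of replicate 1, matched peaks included, 8 of the 9 genes had a summit within 50 kb, against 60.0% of all genes, and 6 had one inside, against 24.9%. In the whole list of replicate 2 it was 7, against 56.9%, and 3, against 22.8%. No start was used for TWNK and TOP1MT, whose distances are to gene ends.

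**Figure D1:**
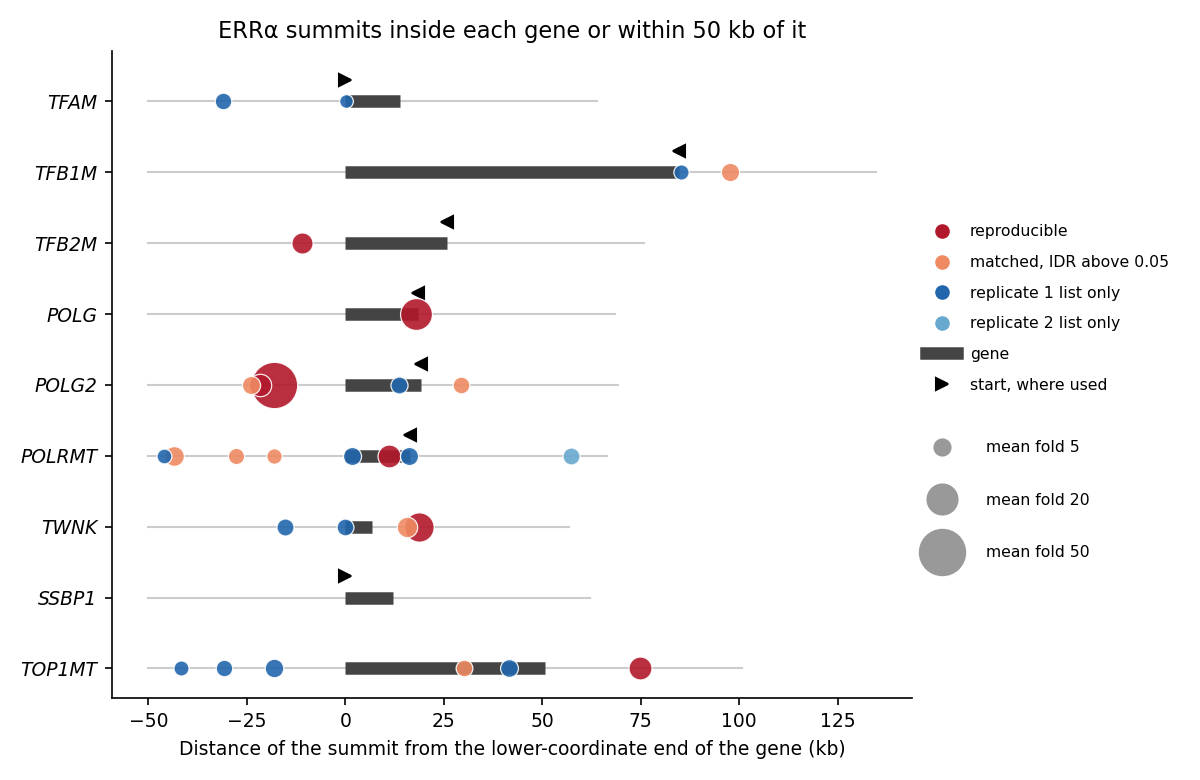
Position of every ERRα summit inside the 9 genes or within 50 kb, as distance from the lower-coordinate end of each gene in kb. Bars are genes, arrowheads mark starts, circles are peaks with an area that grows with fold enrichment (mean of the replicates where both have the peak). The reproducible POLG summit (red) sits inside the gene, 602 bp from its start. The strongest one, beside POLG2, lies 18107 bp outside that gene, and SSBP1 has no circle.

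The POLG peak spanned chr15:89333928-89334893 (GRCh38), 966 bp, with its summit at 89334222. POLG lies on the minus strand from 89316320 to 89334824, so the summit was inside the gene, 602 bp after the start. Fold enrichment over input at the summit was 25.9 in replicate 1 and 19.9 in replicate 2, a mean of 22.9 ± 4.21 (SD, n = 2). Both replicates had a strong peak there, with −log10 q of 77.6 and 57.1. The replicate summits were 24 bp apart, close to the median of 26 bp over all reproducible peaks. The log2 ratio of replicate 1 to replicate 2 was 0.38, and the SD of that ratio over the 5070 reproducible peaks was 0.27. By mean fold the peak ranked 959 of 5070, above 81.1% of them, and 177 of the 768 reproducible peaks within 1 kb of a gene end.

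The same summit was 413 bp outside POLGARF, a protein-coding entry for a second reading frame of the POLG transcript, which is therefore called with POLG and is not a separate case. POLG-DT, a non-coding RNA gene on the plus strand, starts at 89334487 under the same peak. Another non-coding gene, TRR-TCG1-1, also lay within 1 kb of the summit, so the peak cannot be assigned to POLG alone. Whether the summit is exonic or intronic was not determined, since exon positions were not used here. Of the RefSeq windows (250 bases before to 50 after a start, assembly GRCh38.p14), that of POLG-DT was covered whole by the peak and began 15 bp from the matched summit, and that of POLG had its last 119 bases inside the peak. Both are shown because they lie under or at the edge of the reproducible peak, on the side of the summit toward the POLG start. On the other side, the window of POLGARF had 132 bases inside the peak. Capitals in this and the later sequences mark AGGTCA, with its preceding A where it reads AAGGTCA (the core of the ERR response element), the NRF1 site (GCGC, any base, then TGCGC) and the ETS site CCGGAAGT, each searched on both strands. None of these occurs in the windows of POLG-DT, POLG or POLGARF. The bases under the summit itself lie between windows and were not examined.
POLG-DT, chr15:89334237-89334536, plus strand: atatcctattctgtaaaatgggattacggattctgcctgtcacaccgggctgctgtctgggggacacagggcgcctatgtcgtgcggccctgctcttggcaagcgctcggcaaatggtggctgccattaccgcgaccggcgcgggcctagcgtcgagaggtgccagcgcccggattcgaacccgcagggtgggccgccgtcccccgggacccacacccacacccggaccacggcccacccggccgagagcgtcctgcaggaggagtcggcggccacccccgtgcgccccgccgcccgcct
POLG, chr15:89334775-89335074, minus strand: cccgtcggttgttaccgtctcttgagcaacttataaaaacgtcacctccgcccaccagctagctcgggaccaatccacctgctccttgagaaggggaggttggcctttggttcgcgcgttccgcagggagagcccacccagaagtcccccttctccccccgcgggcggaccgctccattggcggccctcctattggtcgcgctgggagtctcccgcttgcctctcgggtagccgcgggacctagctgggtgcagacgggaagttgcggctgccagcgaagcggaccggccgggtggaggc

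POLG2, the partner subunit of POLG, had the strongest peak of the set beside it but none of its own in both replicates. The peak at chr17:64459296-64460082 reached 55.2 in replicate 1 and 49.7 in replicate 2, with a mean fold of 52.5 ± 3.89 (SD, n = 2). That placed it 212 of 5070, above 95.8% of reproducible peaks. Its summit lay 18107 bp beyond the end of POLG2 that is farther from the start, 37376 bp from the start itself. It was inside MILR1, an immune receptor gene whose RefSeq span holds the whole of POLG2. A weaker reproducible peak in MILR1, 21594 bp from POLG2, had folds of 10.0 and 10.8 (mean 10.4 ± 0.568, SD, n = 2), and another, 23988 bp away, was matched without passing IDR (6.02 and 7.12). The 3 summits thus form a cluster on one side of POLG2, all within MILR1. On the other side a matched peak at the adjoining starts of DDX5 and CEP95, 10175 bp from POLG2, had folds of 6.39 and 4.54 and did not pass IDR. Inside POLG2 itself the list of replicate 1 had a peak of 5.71, 5524 bp after the start, and replicate 2 had none. To which gene a summit between or inside overlapping genes belongs cannot be read from peak positions.

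The replication helicase gene TWNK showed a like arrangement. Its nearest reproducible summit, at chr10:101006014-101006701, was 11954 bp beyond the upper end of TWNK and inside the neighbouring gene LZTS2. The folds were 18.2 and 19.8 (mean 19.02 ± 1.12, SD, n = 2), above 73.4% of reproducible peaks. The gap between the POLG and TWNK means was smaller than the POLG SD. A second LZTS2 peak, 8911 bp from TWNK, came to 10.9 in replicate 1 and 6.11 in replicate 2 and did not pass IDR. The replicates differed more there than at any other matched peak of the 29, with a log2 ratio of 0.83. At TWNK itself, replicate 1 alone had a peak of fold 5.54 (−log10 q 6.07), with its summit at chr10:100987558, 15 bp inside the lower end of the gene and 61 bp outside MRPL43, a mitochondrial ribosomal protein gene on the minus strand. No peak of replicate 2 was there.

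SSBP1 and TOP1MT complete the replication genes. SSBP1 had no peak of any kind within 50 kb in either list. Its nearest summit was 723 kb away in replicate 1 and 586 kb in replicate 2, and the nearest reproducible one 1747 kb. It was the most isolated of the 9 genes from ERRα summits. TOP1MT, on chromosome 8, had a reproducible summit 24126 bp beyond its upper end, at the end of RHPN1, with folds of 10.2 and 11.8 (mean 11.0 ± 1.10, SD, n = 2). A matched peak inside TOP1MT, with folds of 5.61 and 5.28, had an IDR score of 154, far under the 540 required. Another peak inside the gene, with fold 6.30, was in the replicate 1 list alone, as were 3 more on the lower side of the gene at 4.33 to 6.85. The values for TOP1MT are therefore those of a gene with weak, mostly unmatched peaks and a moderate one at its neighbour.

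Of the transcription genes, POLRMT had a reproducible peak of its own. It spanned chr19:628111-628586, inside the gene (617221 to 633537, minus strand) and 5180 bp after the start. Its fold was 10.7 in replicate 1 and 11.3 in replicate 2, a mean of 11.0 ± 0.441 (SD, n = 2), above 34.6% of reproducible peaks. The mean at POLRMT and that beside TOP1MT were closer than either SD. POLRMT had the most peaks nearby, 8 in all. Matched peaks that did not pass IDR lay in BSG and beside and in HCN2, 18178 to 43512 bp beyond the gene, with mean folds from 4.57 to 7.85. Peaks in the replicate 1 list alone were found 151 bp after the POLRMT start (fold 6.52, −log10 q 8.84), 1784 bp from the other end (6.47) and within 1 kb of an end of BSG (4.19). The peak in the replicate 2 list alone, with fold 5.64, was 40892 bp away, near FSTL3.

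TFB2M had 1 peak within 50 kb, and it was reproducible. At chr1:246529114-246529906, it lay 11052 bp beyond the end of TFB2M and 22230 bp from SMYD3, the nearest other protein-coding gene, inside neither. The folds were 9.51 and 8.86 (mean 9.19 ± 0.460, SD, n = 2), above 16.5% of reproducible peaks. It had an IDR score of 815, the lowest of the 7 reproducible peaks, and is lost at an IDR of 0.01 (score of at least 830). The start of TFB2M, at 246566261 beside that of CNST on the other strand, had no peak in either replicate.

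TFB1M and TFAM had no reproducible summit within 50 kb. For TFB1M the matched peak just under the IDR limit, with a score of 439, was 12983 bp before the start, with folds of 6.72 and 6.58. The replicate 1 list alone had a peak 484 bp before the start (fold 4.43, −log10 q 3.07). TFAM, the best known member, had a peak 261 bp after its start in replicate 1 alone, at chr10:58385413-58385775. Its fold of 3.50 was among the lowest 0.970% of that list, with a −log10 q of 2.65. A second replicate 1 peak, with fold 5.36, was 31100 bp away in UBE2D1. The nearest replicate 2 summit was 53.5 kb from TFAM, just outside the window, and belonged to a matched peak of mean fold 4.60 and IDR score 154. The nearest reproducible summit was 116 kb away. Just inside the 50 kb limit, the farthest matched summit was that in BSG, 43512 bp from POLRMT.

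**Figure D2:**
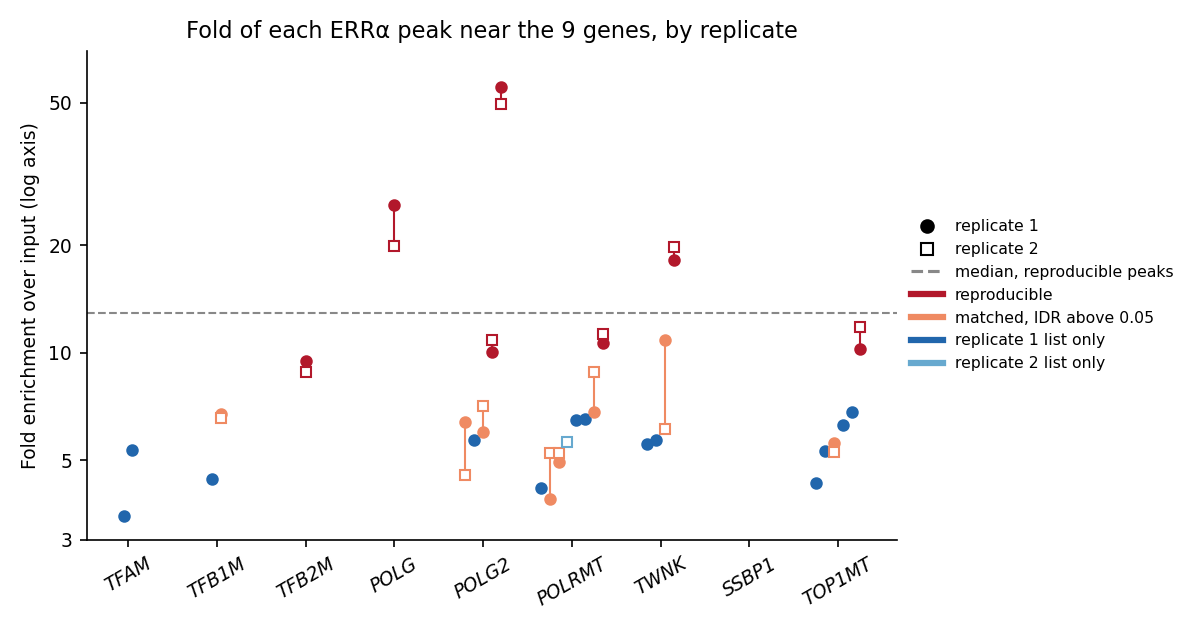
Fold enrichment over input (log axis) of each peak near the 9 genes, with replicate 1 as filled circles and replicate 2 as open squares joined where both have the peak. Colours give the kind of peak, and the dashed line is the median mean fold of 12.9 over the 5070 reproducible peaks. The POLG peak and the strongest peaks beside POLG2 and TWNK lie above that line in both replicates, and all other peaks lie below it.

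In order of the mean fold of the strongest reproducible summit in the window, the genes were POLG2 (52.5), POLG (22.9), TWNK (19.02), TOP1MT (11.0), POLRMT (11.0) and TFB2M (9.19). POLG2 was separate from POLG by more than either SD. TOP1MT and POLRMT had like values, and TFB2M was below POLRMT by more than the SD of either. The median over all reproducible peaks was 12.9, with quartiles of 9.99 and 19.7. The 4 named neighbours MILR1, LZTS2, RHPN1 and POLGARF share or hold these summits. Of the 7 reproducible peaks, 3 were higher in replicate 1 and 4 in replicate 2, and the log2 ratio ran from −0.20 to 0.38. IDR selects for such likeness, so it is not a separate result. With 2 replicates, each SD is itself imprecise.

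**Figure D3:**
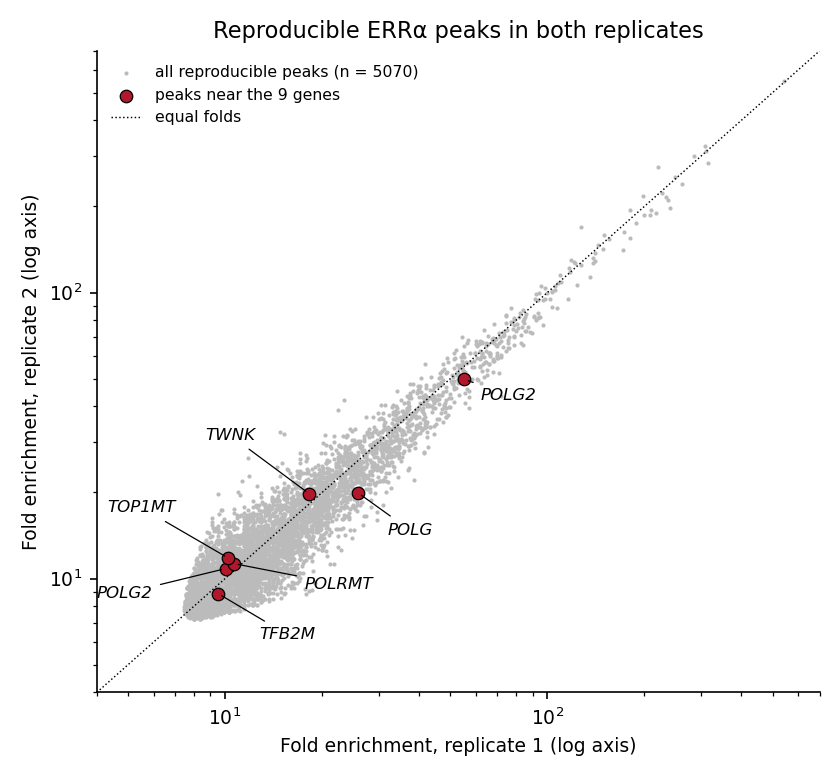
Fold enrichment in replicate 1 against replicate 2 (both log axes) for the 5070 reproducible peaks (grey) and the 7 near the 9 genes (red, named by gene), with the line of equal folds. POLG lies below the line, at 25.9 and 19.9, and the strongest POLG2 peak is at 55.2 and 49.7.

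At the gene ends, the replicates gave different counts for these genes. The list of replicate 1 had a summit within 1 kb of an end of 5 of the 9 (POLG, POLRMT, TFAM, TFB1M and TWNK), against 12.2% of all protein-coding genes. The list of replicate 2 had one for POLG alone, against 11.0% of all genes. A summit in replicate 1 with none in replicate 2 was thus present at 4 of 9 genes, against 3.31% of all genes, and the reverse at 0 of 9, against 2.13%. The 4 folds, from 3.50 to 6.52, stand beside those of all 604 unmatched replicate 1 summits at gene ends, which had a median fold of 4.95, with quartiles of 4.43 and 5.87. The median of all replicate 1 peaks was 7.07. At starts the counts were 4 of 7 in replicate 1, against 12.7% of all genes, and 1 of 7 in replicate 2, against 11.2%. The 4 peaks rest on replicate 1 alone, and whether they would recur was not tested. Without replicate 1, POLG is the 1 gene left with a summit at an end.

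Of the 4 summits at gene ends in replicate 1 alone, only those at POLRMT and TWNK lay inside a window examined here. Both windows held AGGTCA. Only at POLRMT did it read as the ERR core AAGGTCA, and the longer ERR element TNAAGGTCA was in neither window. LOC105372234 is a non-coding RNA gene that starts inside POLRMT on the other strand. Its RefSeq window holds the replicate 1 summit at the POLRMT start and has AAGGTCA at 2 places, the nearer one centred 45 bp from that summit. The window of MRPL43 spans the lower end of TWNK and holds AGGTCA once, on the reverse strand (printed as TGACCT), centred 5.5 bp from the replicate 1 summit. The TFAM window, of which the replicate 1 peak covers 47 bases, has no AGGTCA but 1 NRF1 site, at bases 188 to 197. That window lies 212 bp from the TFAM summit, whose own bases were not examined. Among 35116 promoter windows of the same length, AAGGTCA was found in 3.92% and AGGTCA, which includes all AAGGTCA matches, in 13.8%. Of the 216 windows that contain a reproducible summit, 42.6% held AAGGTCA and 58.8% AGGTCA. The TFB1M window, 234 bp from its replicate 1 summit, held no AGGTCA, and the bases at that summit were not examined. The 3 windows shown here are not a like comparison with those at POLG, which hold none of the marked sites. Those of LOC105372234 and MRPL43 contain a summit, whereas the windows at POLG lie beside its summit, whose bases were not examined.
LOC105372234, chr19:633214-633513, plus strand: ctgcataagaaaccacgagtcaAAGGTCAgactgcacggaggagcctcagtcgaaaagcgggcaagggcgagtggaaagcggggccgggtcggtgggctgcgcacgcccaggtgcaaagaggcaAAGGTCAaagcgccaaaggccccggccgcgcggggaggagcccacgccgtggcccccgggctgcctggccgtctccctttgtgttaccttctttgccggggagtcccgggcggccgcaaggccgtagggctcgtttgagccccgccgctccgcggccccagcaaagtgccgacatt
MRPL43, chr10:100987448-100987747, minus strand: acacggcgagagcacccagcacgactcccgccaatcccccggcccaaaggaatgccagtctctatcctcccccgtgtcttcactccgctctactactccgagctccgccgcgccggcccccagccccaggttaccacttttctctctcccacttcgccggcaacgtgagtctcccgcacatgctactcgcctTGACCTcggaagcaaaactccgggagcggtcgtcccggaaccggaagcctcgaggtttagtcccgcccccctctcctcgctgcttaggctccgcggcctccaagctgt
TFAM, chr10:58385160-58385459, plus strand: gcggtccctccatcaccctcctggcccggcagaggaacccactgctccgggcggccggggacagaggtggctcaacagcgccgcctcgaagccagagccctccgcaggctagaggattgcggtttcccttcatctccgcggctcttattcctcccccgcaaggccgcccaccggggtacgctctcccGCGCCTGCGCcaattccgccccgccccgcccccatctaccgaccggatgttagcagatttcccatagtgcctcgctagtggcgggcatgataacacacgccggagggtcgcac

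RefSeq windows were found for 7 of the 9 genes (not for TWNK and TOP1MT), with 3 for SSBP1. None of the 7 genes' own windows held AAGGTCA or the longer element TNAAGGTCA, which 0.951% of all windows held. TFB2M had AGGTCA once, 16 bases after its start, where no peak was called. By contrast, the NRF1 site was in the windows of 4 genes (TFAM, TFB1M, POLG2 and POLRMT), against 5.78% of all windows, and in 7.87% of windows with a reproducible ERRα summit. The ETS site was in those of POLRMT and SSBP1, against 4.14%, and the SP1 box GGGCGG in all 7, against 45% (SP1 is a general factor of GC-rich promoters). A gene was counted if any of its windows held the site, whereas the shares are of single windows, so they are unlike measures. The third SSBP1 window had no SP1 box. All of these are matches of letters in 300 bases around a start, not measured sites.

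Other genes of the pathway were taken from 3 lists of 48 genes in all. A reproducible summit lay within 1 kb of an end in 5 of the 48 (10.4%), against 4.49% of all genes. The lists were chosen with earlier results of these data known, so this count was not tested. In the list for copying and packaging of mitochondrial DNA the count was 1 of 16. That gene was MRPL12, with folds of 31.9 and 28.0 (mean 29.96 ± 2.82, SD, n = 2), 337 bp after its start. MRPL12 was counted in that list, but it is a ribosomal protein that also binds POLRMT, and no other gene of the list was called. In nucleotide supply the count was 1 of 8, SUCLG1, a subunit of succinyl-CoA ligase. Its folds were 11.5 and 10.9 (11.2 ± 0.449, SD, n = 2), at a summit shared with DNAH6. Of genes that make and process mitochondrial RNA the count was 3 of 24, all of the FASTK family of RNA-binding proteins. FASTK, FASTKD2 and FASTKD3, of the same family and list, had none. Their nearest reproducible summits were 11014, 149539 and 2204201 bp from an end. FASTKD5 had folds of 18.7 and 19.7 (19.2 ± 0.7001, SD, n = 2) at a summit shared with UBOX5, FASTKD1 had 13.3 and 14.7 (14.03 ± 0.988, SD, n = 2), and TBRG4 8.37 and 9.27 (8.82 ± 0.632, SD, n = 2). The median of the 5 mean folds was 14.03, against 13.5 for all 768 reproducible peaks at gene ends. In the list of replicate 1, 16 of the 48 had a summit at an end, against 12.2% of all genes, and in that of replicate 2, 10, against 11.0%. In replicate 1 with none in replicate 2 there were 6, against 3.31% of all genes, and 0 the other way, against 2.13%.

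**Figure D4:**
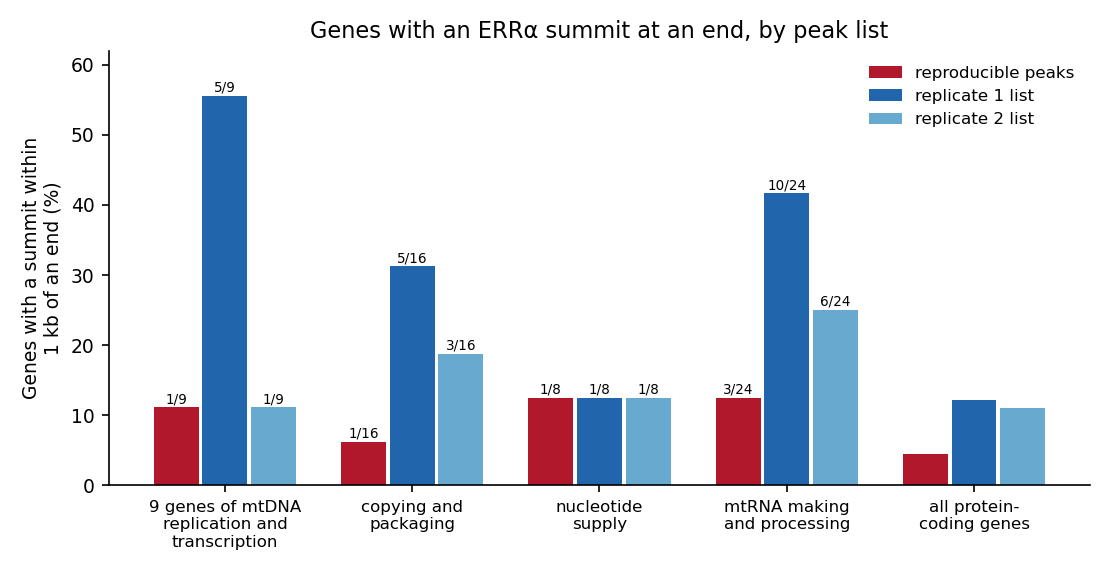
Percent of genes with an ERRα summit within 1 kb of an end, for the 9 genes, the 3 pathway lists and all protein-coding genes, by peak list (bars start at 0, with counts above them). The 9 genes have 1 in the reproducible set and in replicate 2, and 5 in replicate 1.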

How the data were processed

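Peaks are on build hg38, and the submitters' processing notes name MACS2 2.2.6, Bowtie2 2.3.5, Trim Galore 0.6.5, deepTools, SAMtools and Picard. Their parameters were not given in the sources used here. Each deposited replicate list holds 1 ChIP replicate called against both inputs, so the replicates share a background. The fold enrichment (a ratio of ChIP to local background at the summit) and the −log10 q of each peak are the authors' values, and are the same in the deposited list of matched peaks, where the fold of merged peaks is their sum. The deposited score of matched peaks grows as IDR falls, and a score of at least 540 (IDR of 0.05) was required here. Depth per peak was not used, so no interval covers read counting.

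A summit is the peak's start plus the deposited offset, counted from 1. Gene ends came from the RefSeq table of GRCh38.p14, the build of hg38, and starts, strand and sequences from its promoter windows. Peaks of the replicate lists that overlap a matched peak by 1 bp were counted with it. No test was run: the 9 genes and the lists were chosen with earlier results of these data known, and counts are set beside the share of all protein-coding genes called by the same rule. The text names all 9 genes, pathway genes with a reproducible summit within 1 kb of an end, and the neighbours of each summit described. The calls and the motif search were tested on simulated data. Python 3.11.15 with pandas 2.3.3 and NumPy 2.4.6 was used.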

Additional observations from a re-analysis of the deposited data

How the results depend on the processing

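Of the 9 genes, 6 had a reproducible summit inside or within 50 kb, against 33.7% of all coding genes, and this fell to 2 with a window of 10 kb (18.3% of all genes). It was 5 at IDR 0.01 (27.9%), 7 with all matched peaks (50.8%), 6 with a −log10 q of at least 5 (33.7%) and 6 with 100 kb (46.4%). Without replicate 1 it was 7 (56.9%) and without replicate 2 it was 8 (60.0%). At gene ends the count of 1 became 0 with a window of 500 bp (2.82% of all genes), since the POLG summit is 602 bp from the start, and ran from 1 (11.0%) to 5 (12.2%) over the lists of a single replicate. At starts it likewise became 0 with 500 bp (2.97%) and ran from 1 (11.2%) to 4 (12.7%). For the 48 pathway genes the count of 5 (4.49% of all genes) became 10 with all matched peaks (8.85%) and 8 with a window of 5 kb (9.28%), and was 10 (11.0%) and 16 (12.2%) over the lists of a single replicate. AGGTCA in the windows of the 7 genes that have one went from 1 gene to 0 with the 250 bases before the start, which leave out its place in TFB2M. The folds without a replicate are those printed per replicate. No paired analysis was possible because the inputs have no peaks of their own and enter as a common background.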

Other observations

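None of the deposited peak lists held a peak on mitochondrial DNA itself: 0 of 14072 peaks on nuclear chromosomes and 371 on other contigs in replicate 1, and 0 of 12659 and 358 in replicate 2. Whether reads on mitochondrial DNA were kept before peak calling is not given in the sources used here, so these lists say nothing of ERRα on the mitochondrial genome.

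Some genes had a summit at an end in both replicates' lists but no reproducible one there. The share of all protein-coding genes under that rule was not computed, so the count that follows has no background. Of the 48 other pathway genes, 5 met the rule (RNASEH1, LONP1, LRPPRC, SLIRP and FASTK). They included LONP1, which encodes the protease that degrades TFAM, where the nearest reproducible summit was 1784 bp from an end. RNASEH1, which removes RNA primers, had its nearest reproducible summit 4609 bp from an end.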
